A study of Mus musculus with 12 samples.

Results

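The 10 genes described here encode the subunits of calcium/calmodulin-dependent protein kinase II (CaMKII), the small proteins that inhibit it and related kinases of the same signalling system, out of 17283 genes in the deposited table. They were chosen by name: the subunit genes Camk2a, Camk2b, Camk2g and Camk2d, the inhibitor genes Camk2n1 and Camk2n2, the kinase genes Camk4, Camkk1 and Camkk2, and the pseudokinase gene Camkv. All 10 were in the table and all passed the filter on low values, so that each was tested among 13586 genes. Levels are given as FPKM, fragments per kilobase of exon scaled to library depth, in each library.

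RNA was sequenced from the medial prefrontal cortex (mPFC) of C57 mice, the reference strain, and of BTBR mice, inbred animals that serve as an autism model and differ from C57 at many loci. Every animal was labelled WT and received intraperitoneal injections over 7 days, of either the DMSO solvent (vehicle) or the plant saponin astragaloside IV (ASIV). The groups were C57 vehicle, C57 ASIV, BTBR vehicle and BTBR ASIV, with 3 libraries each of 16166319 to 18660000 fragments. The series title links the action of ASIV in BTBR mice to CAMK2N2, and the stated question is whether ASIV improves neurotransmission in them. Age, sex, dose and any pooling of tissue were not given in the labels, nor is it said that the libraries of a group came from separate animals, so the p-values measure the spread between these samples.

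CaMKII is one of the most abundant proteins of the postsynaptic density in the forebrain. Calcium entering through NMDA receptors loads calmodulin, which opens the kinase. Neighbouring subunits of the holoenzyme then phosphorylate each other, and the kinase stays active after calcium has fallen, a step needed for long-term potentiation. CaM-KIIN alpha (Camk2n1) and CaM-KIIN beta (Camk2n2) are small proteins of neurons that bind the catalytic site of the active kinase and block it. CaMKK1 and CaMKK2 are upstream kinases that phosphorylate CaM kinase IV (Camk4) and the CaM kinase I family, and CaM kinase IV acts in the nucleus on CREB and its coactivators.

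The coding sequences of the inhibitors are shown because both genes were followed library by library and because closely related copies can share reads. Both sequences were read from GENCODE M21 on GRCm38, with capitals at the bases in which they differ. The coding part of Camk2n1 spans chr4:138455186-138456788 on the plus strand in 2 exons, and that of Camk2n2 spans chr16:20620173-20621194 on the minus strand in 2 exons.
Camk2n1: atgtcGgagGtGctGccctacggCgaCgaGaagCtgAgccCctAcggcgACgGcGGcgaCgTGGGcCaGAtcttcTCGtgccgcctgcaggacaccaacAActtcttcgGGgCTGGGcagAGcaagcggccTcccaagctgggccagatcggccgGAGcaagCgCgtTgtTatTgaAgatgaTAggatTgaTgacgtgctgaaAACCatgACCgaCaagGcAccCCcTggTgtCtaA
Camk2n2: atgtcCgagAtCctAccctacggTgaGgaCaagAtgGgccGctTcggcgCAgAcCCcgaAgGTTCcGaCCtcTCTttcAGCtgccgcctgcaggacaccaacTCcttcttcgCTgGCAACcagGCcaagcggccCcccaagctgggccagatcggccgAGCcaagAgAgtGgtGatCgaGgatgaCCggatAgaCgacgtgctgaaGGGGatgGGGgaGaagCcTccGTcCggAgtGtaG
Of 237 aligned bases 169 were identical (71.3%), and 3 positions were gaps. The longest run that the transcripts share was 23 bases. The coding part fills 240 of the 1291 exon bases of Camk2n2 and 237 of the 4444 exon bases of Camk2n1.

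The 250 bases before the RefSeq start of Camk2n2 (chr16:20621279-20621528, minus strand, GRCm38.p6) are shown because Camk2n2 is the gene named in the series title and has a GC-rich start. Capitals mark matches on either strand to the GC box (GGGCGG) and to the half-site of the cAMP response element (TGACG).
Camk2n2 promoter: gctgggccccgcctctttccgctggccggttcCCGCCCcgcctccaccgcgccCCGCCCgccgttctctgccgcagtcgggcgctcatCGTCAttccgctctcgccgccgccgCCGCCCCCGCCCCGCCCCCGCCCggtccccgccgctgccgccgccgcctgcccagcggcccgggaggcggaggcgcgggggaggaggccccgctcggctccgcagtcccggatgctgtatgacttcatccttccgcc
The GC content was 80.0%, and there were 6 GC box matches, some of them overlapping, where 32.7% of 32851 RefSeq promoters of this length held at least 1. The half-site matched 1 time and was present in 17.8% of promoters. The full cAMP response element (TGACGTCA, 1.55% of promoters), the CCAAT box (CCAAT, 33.8%) and the TATA box (TATAAA, 12.4%) had no match in this window. Of the 10 genes, 6 had an entry in the set of promoters used here. A missing entry in that set need not mean that RefSeq lacks the promoter.

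Within C57 vehicle the order of mean levels was Camk2n1, Camk2a, Camk2n2, Camkv, Camk2b, Camk2g, Camkk2, Camkk1, Camk4 and Camk2d. By mean FPKM over the 12 libraries Camk2n1 ranked 20, Camk2a 37, Camkv 153 and Camk2n2 177 among all genes of the table. The neighbours that were not separated in C57 vehicle were Camk2n2 with Camkv and Camkk2 with Camkk1, whose libraries overlapped. In every group Camk2n1 and Camk2a held the highest mean levels and Camk2d the lowest.

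**Figure D1:**
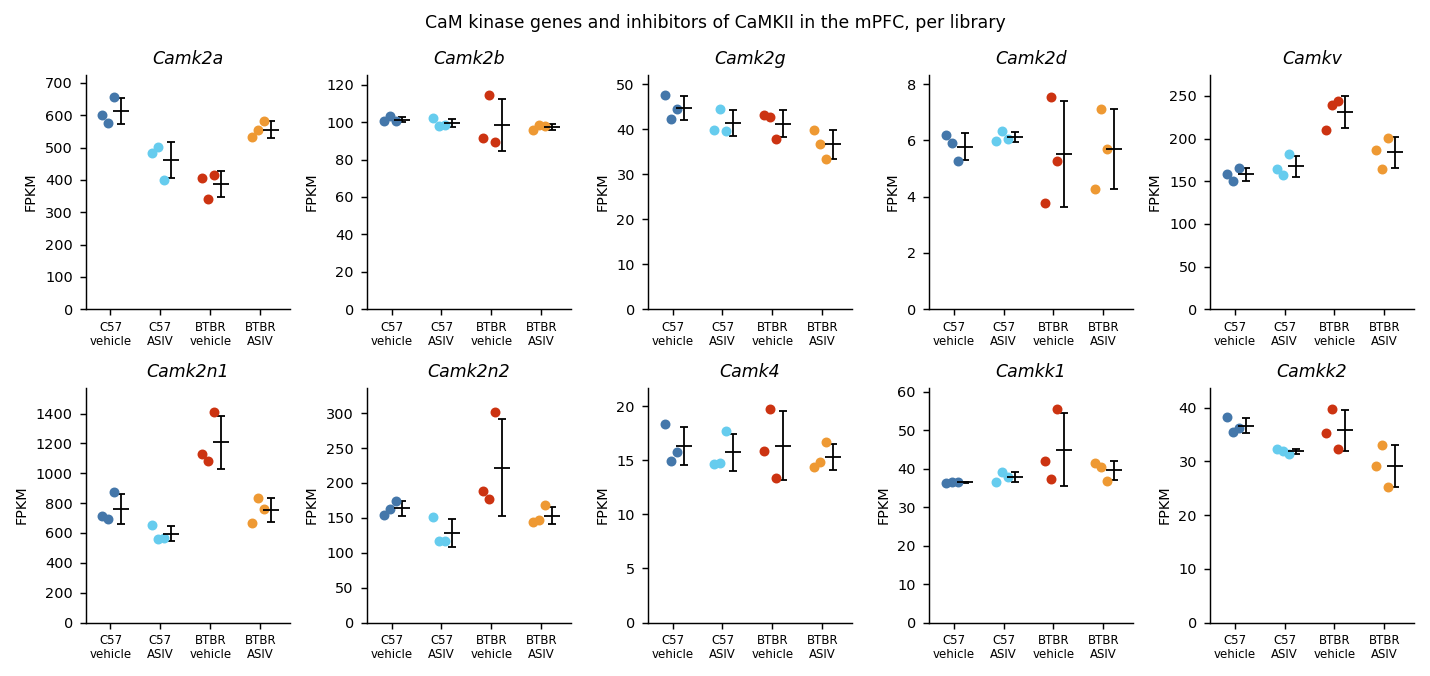
FPKM of the 10 genes in each of the 12 libraries, by strain and treatment; points are libraries and the bars show the mean and SD of 3. The mean of Camk2a is lowest and the means of Camk2n1 and Camkv are highest in BTBR vehicle, and 1 BTBR vehicle library lies far above the others for Camk2n2.

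Camk2a (ENSMUSG00000024617, chr18:60925618-60988152 on the plus strand) encodes the alpha subunit, the main subunit of forebrain excitatory neurons. Its FPKM was 601.9, 577.4 and 656.3 in C57 vehicle, 483.9, 501.7 and 399.1 in C57 ASIV, 406.6, 341.0 and 414.7 in BTBR vehicle, and 531.1, 552.8 and 582.8 in BTBR ASIV. All 3 BTBR vehicle libraries lay below all 3 C57 vehicle libraries, and all 3 BTBR ASIV libraries lay above the BTBR vehicle libraries. Under vehicle Camk2a was lower in BTBR by a log2 difference of -0.66 ± 0.12 (SE, 8 residual degrees of freedom, limma adjusted p = 0.000736), with means of 387.4 ± 40.4 against 611.9 ± 40.4 (SD, n = 3). With ASIV it rose in BTBR by 0.52 ± 0.12 (limma adjusted p = 0.00543), to 555.6 ± 25.9, which is 0.908 of the C57 vehicle mean.

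In C57 the ASIV libraries of Camk2a lay below the vehicle libraries, at 461.6 ± 54.8 (SD, n = 3). The log2 difference of -0.41 ± 0.12 had a 95% interval of -0.66 to -0.16 and did not pass (limma adjusted p = 1.00). The effect of ASIV on Camk2a differed between the strains by 0.93 ± 0.16 in the interaction term (limma adjusted p = 0.00457), and no other of the 10 genes passed that test, in which 14.3% of all genes tested were called (6.91% higher and 7.36% lower). Of those calls 48.4% were higher, and 58.7% after rescaling without mitochondrial genes. Under ASIV the BTBR libraries lay above the C57 libraries, by 0.27 ± 0.12, which did not pass (limma adjusted p = 0.224).

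Camk2b (chr11:5969644-6066362, minus strand) encodes the beta subunit, which binds actin filaments. Its mean FPKM was 101.3 ± 1.52 in C57 vehicle, 99.4 ± 2.20 in C57 ASIV and 98.6 ± 13.96 in BTBR vehicle, against 97.4 ± 1.42 with ASIV in BTBR (SD, n = 3). The wide spread in BTBR vehicle came from its libraries at 91.7, 114.6 and 89.3. The log2 difference between the strains under vehicle was -0.05, with a 95% interval of -0.26 to 0.16, so that a change of the size seen for Camk2a lay outside it.

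Camk2g (chr14:20734875-20794088, minus strand), whose gamma subunit can carry calmodulin to the nucleus, had mean FPKM of 44.8 ± 2.65 in C57 vehicle, 41.3 ± 2.82 in C57 ASIV and 41.2 ± 2.98 in BTBR vehicle, against 36.6 ± 3.17 with ASIV in BTBR (SD, n = 3). No pair of groups passed the test, and the strain difference under vehicle was -0.12 (limma adjusted p = 0.344). Camk2d (chr3:126596302-126846326, plus strand), the delta subunit best known from the heart, was the lowest of the family at 3.77 to 7.53 FPKM over the 12 libraries. Its largest spread was in BTBR vehicle, with 3.77, 7.53 and 5.26, and none of its differences passed.

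The make-up of the subunit RNA differed between the groups for the Camk2a, Camk2b and Camk2g shares. Of the summed FPKM of the 4 subunit genes, Camk2a held 80.1 ± 1.14% in C57 vehicle, 75.7 ± 1.98% in C57 ASIV and 72.6 ± 4.54% in BTBR vehicle, against 79.9 ± 0.941% with ASIV in BTBR (SD, n = 3). Camk2b held 13.3, 16.4, 18.6 and 14.0% in the same order, and Camk2g 5.87, 6.81, 7.75 and 5.28%. Exact permutation tests of the F statistic over the 4 groups (369600 partitions), adjusted over the 4 shares, gave p = 0.0238 for Camk2a, 0.0351 for Camk2b and 0.013 for Camk2g. The shares sum to 100%, so these are not separate results, and the FPKM of Camk2b itself averaged 101.3, 99.4, 98.6 and 97.4 in the same order. For Camk2d, at 0.760 to 1.05% in the group means, the exact permutation p was 0.393. The summed level itself was 763.8 ± 39.4 FPKM in C57 vehicle, 608.5 ± 57.3 in C57 ASIV and 532.7 ± 23.3 in BTBR vehicle, against 695.3 ± 24.5 with ASIV in BTBR.

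**Figure D2:**
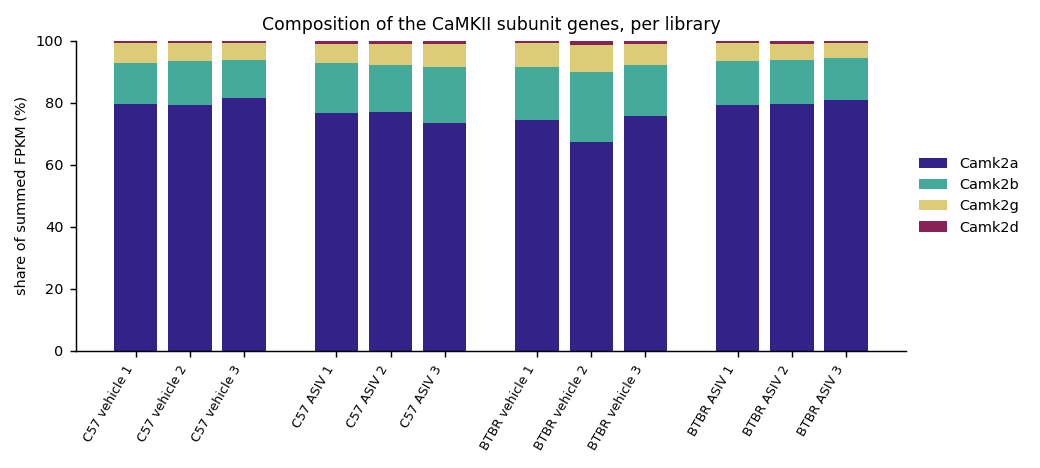
Share of each subunit gene in the summed FPKM of Camk2a, Camk2b, Camk2g and Camk2d, in percent, for each library. The Camk2a share is 79.2 to 81.4% in C57 vehicle and BTBR ASIV libraries, and falls to 67.4% in 1 BTBR vehicle library.

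Camk2n1 (ENSMUSG00000046447, chr4:138454314-138460123, plus strand) was the most abundant of the 10 RNAs. Its FPKM was 711.9, 690.4 and 877.4 in C57 vehicle, 656.7, 562.2 and 568.7 in C57 ASIV, 1128, 1079 and 1413 in BTBR vehicle, and 667.7, 833.5 and 761.9 in BTBR ASIV. The BTBR vehicle libraries stood above the 9 others without overlap. Under vehicle Camk2n1 was higher in BTBR by 0.66 ± 0.14 on the log2 scale (limma adjusted p = 0.00232), with means of 1207 ± 180 against 759.9 ± 102 (SD, n = 3). With ASIV it fell in BTBR by 0.67 ± 0.14 (limma adjusted p = 0.00365), to 754.4 ± 83.2, which is 0.993 of the C57 vehicle mean.

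In C57 the ASIV libraries of Camk2n1 lay below the vehicle libraries, at 595.9 ± 52.8. The log2 difference of -0.35 ± 0.14 did not pass (limma adjusted p = 1.00). The interaction of -0.33 did not pass either (limma adjusted p = 0.295), so a different response of the strains was not shown for Camk2n1. Under ASIV the BTBR libraries lay above the C57 libraries by 0.34 (limma adjusted p = 0.213).

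Camk2n2 (ENSMUSG00000051146, chr16:20619215-20621287, minus strand) is the inhibitor named in the series title. Its FPKM was 153.9, 162.4 and 174.4 in C57 vehicle, 151.0, 116.1 and 117.4 in C57 ASIV, 188.3, 176.4 and 301.7 in BTBR vehicle, and 144.3, 147.6 and 167.8 in BTBR ASIV, from 2545 to 6297 fragments per library. The BTBR vehicle libraries lay above those of C57 vehicle and of BTBR ASIV without overlap, but the libraries at 188.3 and 176.4 were near the highest C57 vehicle library at 174.4, and the third was far above.

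The group means of Camk2n2 were 163.6 ± 10.3 in C57 vehicle, 128.2 ± 19.8 in C57 ASIV and 222.1 ± 69.2 in BTBR vehicle, against 153.2 ± 12.7 with ASIV in BTBR (SD, n = 3). The strain difference under vehicle was 0.40 ± 0.18 (limma adjusted p = 0.0871), and the difference between ASIV and vehicle in BTBR was -0.49 ± 0.18 (limma adjusted p = 0.0529), so neither passed the threshold of 0.05. Without the third BTBR vehicle library, these became 0.16 (limma adjusted p = 0.364) and -0.25 (limma adjusted p = 0.172). Without the second BTBR vehicle library, they became 0.54 (limma adjusted p = 0.0283) and -0.64 (limma adjusted p = 0.0213). The second of these differences also passed without the first BTBR vehicle library (limma adjusted p = 0.0425) and without the first C57 ASIV library (limma adjusted p = 0.0497). It passed as well with a filter at FPKM 5 (limma adjusted p = 0.0405) and with a block for the replicate number (limma adjusted p = 0.0443). Removal of the trend with exon length and GC content in each library, which matters for a gene of 1291 exon bases and 63.9% GC, left 0.11 (limma adjusted p = 0.52) and -0.28 (limma adjusted p = 0.11).

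In C57 the ASIV libraries of Camk2n2 also lay below the vehicle libraries, with a log2 difference of -0.36 ± 0.18 (limma adjusted p = 1.00). The interaction was -0.14 with a 95% interval of -0.68 to 0.41 (limma adjusted p = 0.763). Under ASIV the strains differed by 0.26 (limma adjusted p = 0.435) with overlapping libraries.

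**Figure D3:**
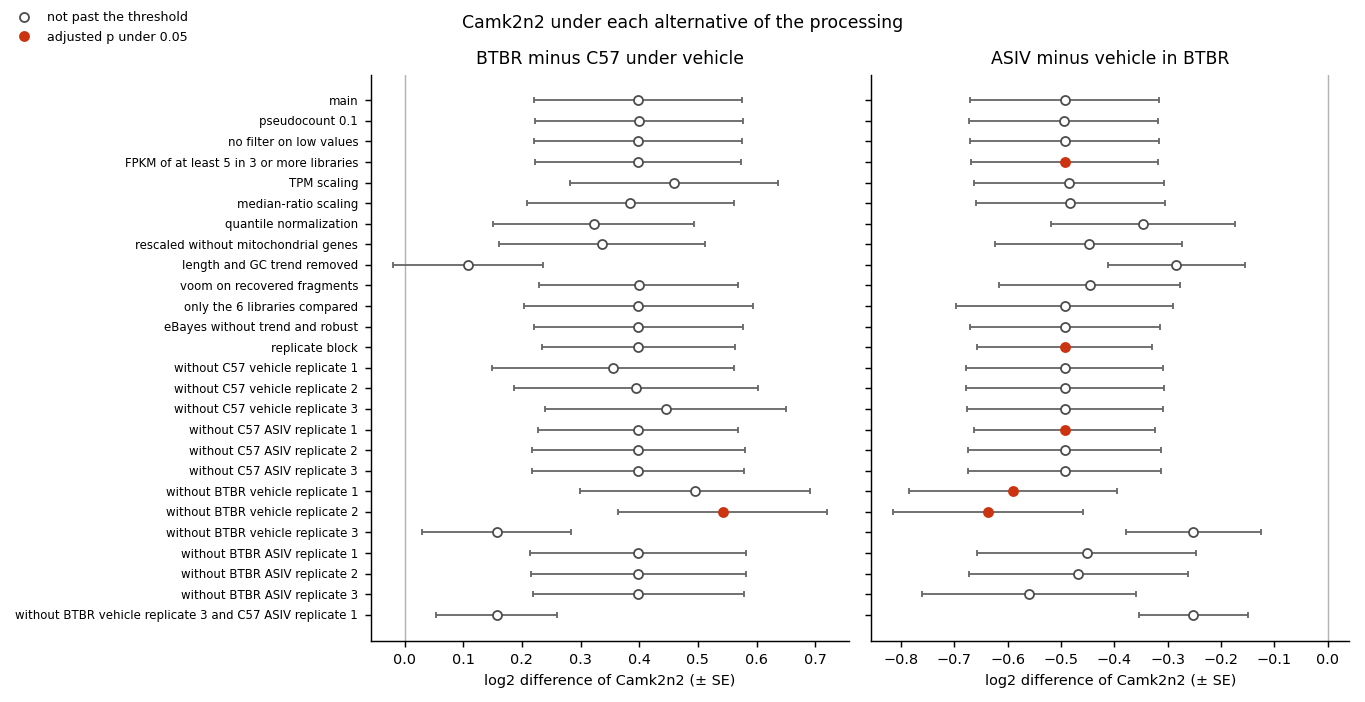
Log2 difference of Camk2n2 with its SE under each alternative of the processing and without each library in turn, for BTBR against C57 under vehicle and for ASIV against vehicle in BTBR; filled points have an adjusted p under 0.05. The direction is the same throughout, and the values move nearest to 0 without the third BTBR vehicle library and after removal of the length and GC trend.

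Set against the alpha subunit within each library, which cancels the scaling of the library, the inhibitors separated BTBR vehicle from the other groups. The ratio of Camk2n1 to Camk2a was 1.18, 1.20 and 1.34 in C57 vehicle, 1.36, 1.12 and 1.42 in C57 ASIV, 2.77, 3.17 and 3.41 in BTBR vehicle, and 1.26, 1.51 and 1.31 in BTBR ASIV. The ratio was thus above 2 in the BTBR vehicle libraries alone among the 12. The groups differed in the exact permutation F test (p = 0.0103, adjusted over 5 ratios 0.0196). Between the strains under vehicle the ratio was 2.51-fold higher in BTBR (log2 1.33), and with ASIV it was 2.29-fold lower in BTBR (log2 -1.20). In C57 the difference between ASIV and vehicle was 0.07 on the log2 scale with overlapping libraries.

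The ratio of Camk2n2 to Camk2a was 0.256, 0.281 and 0.266 in C57 vehicle, 0.312, 0.232 and 0.294 in C57 ASIV, 0.463, 0.517 and 0.728 in BTBR vehicle, and 0.272, 0.267 and 0.288 in BTBR ASIV. Here too every BTBR vehicle library lay above all others, with an exact permutation F test p of 0.016 (adjusted over 5 ratios 0.02). The ratio was 2.09-fold higher in BTBR than in C57 under vehicle and 2.03-fold lower in BTBR with ASIV, and under ASIV the strains differed by -0.01 on the log2 scale. Part of both ratio differences comes from Camk2a in the denominator, which differed by -0.66 under vehicle and 0.52 with ASIV in BTBR. For the ratio of Camk2n2 to Camk2a these differences were 1.06 and -1.02 on the log2 scale. Camk2n2 itself differed by 0.40 and -0.49, and neither passed, so Camk2a made up the larger part of that ratio difference. For the inhibitors summed, the mean ratio to Camk2a was 1.51, 1.58, 3.68 and 1.63 in C57 vehicle, C57 ASIV, BTBR vehicle and BTBR ASIV (adjusted exact permutation p = 0.0196).

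The ratio of Camk2b to Camk2a averaged 0.166 in C57 vehicle, 0.218 in C57 ASIV and 0.259 in BTBR vehicle, against 0.176 with ASIV in BTBR (adjusted exact permutation p = 0.0196), and all 4 comparisons had libraries that did not overlap. The ratio of the inhibitors to each other, Camk2n2 to Camk2n1, averaged 0.217, 0.214, 0.181 and 0.205 in the same order, and the groups were not separated (exact permutation p = 0.229). That p was 0.0026 with the length and GC trend removed, where the strain difference under vehicle moved from -0.26 to -0.54, and 0.0434 without the third BTBR vehicle library (permutation tests). For each of the 20 pairwise comparisons of these 5 ratios, 3 libraries against 3 cannot give an exact two-sided p below 0.1, so none could pass. After adjustment the smallest was 0.2.

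**Figure D4:**
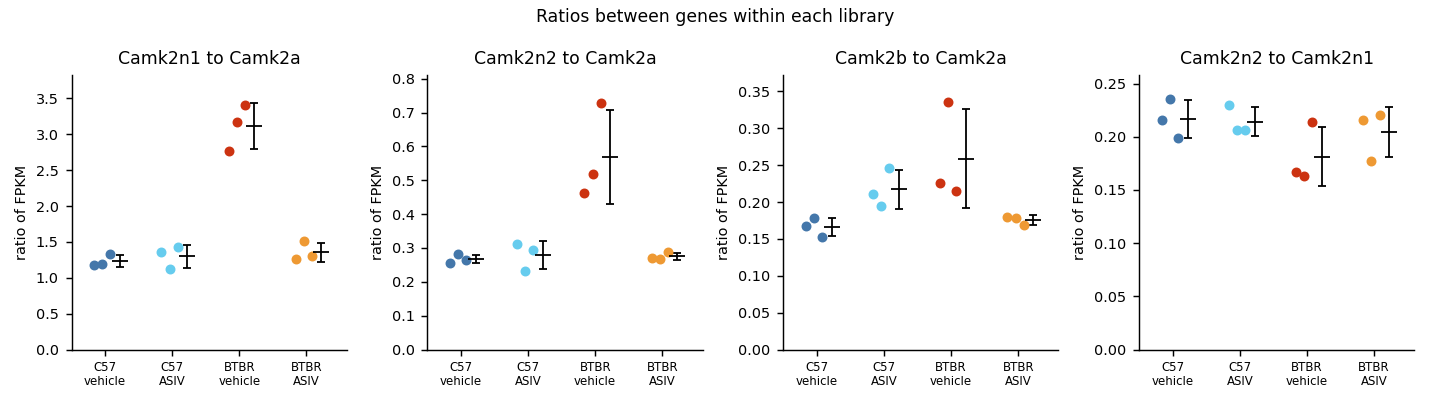
Ratio of FPKM between genes within each library, by strain and treatment; points are libraries and the bars show the mean and SD of 3. The ratio of Camk2n1 to Camk2a is 2.77 to 3.41 in BTBR vehicle and at most 1.51 in every other library.

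A bulk library cannot tell fewer cells of a type from less RNA per cell, and this holds for Camk2a, which is made mostly by excitatory neurons. Of 7 excitatory neuron markers, 3 were lower in BTBR under vehicle and none higher, beside 20.8% lower and 22.3% higher over all genes. Their summed FPKM was 517.7 to 596.7 in C57 vehicle and 483.0 to 615.3 in C57 ASIV. It was 460.1 to 558.6 in BTBR vehicle, against 368.0 to 473.7 with ASIV in BTBR. The mean sum was lowest in BTBR ASIV, where Camk2a was higher than in BTBR vehicle, but the libraries of these groups overlapped in the sum. Relative to the geometric mean of those markers, Camk2n1 averaged 21.7, 16.9, 43.2 and 28.2 and Camk2n2 4.67, 3.64, 7.93 and 5.77 in C57 vehicle, C57 ASIV, BTBR vehicle and BTBR ASIV. Camk2a on that scale averaged 17.4, 13.1, 13.9 and 20.8.

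Other features also moved with BTBR vehicle. Of 8 inhibitory neuron markers 3 were higher and 1 lower in BTBR under vehicle, beside 22.3% higher and 20.8% lower over all genes. Their summed FPKM was 1001 to 1038 in BTBR vehicle against 430.8 to 645.6 in the other groups. The sum rested on Sst, at a mean of 783.1 in BTBR vehicle against 290.1 in C57 vehicle, and on Pvalb, at 113.3 against 39.2. Slc32a1, the vesicular GABA transporter, was lower at 20.6 against 39.2, Gad1 was at 48.7 against 53.1, and the median log2 difference of the 8 was 0.04. Messenger RNAs of the mitochondrial genome made up 0.328 to 0.641% of fragments in BTBR vehicle and 3.00 to 4.67% elsewhere. After rescaling without those genes Camk2a differed between the strains under vehicle by -0.72 (limma adjusted p = 0.000415) and Camk2n1 by 0.60 (limma adjusted p = 0.00419). The part of the cell type markers in these differences was not tested. Of 8 markers of striatal projection neurons, a neighbouring region, none was called, and their sum varied within each group, from 90.5 to 244.4 FPKM in C57 vehicle, 83.0 to 294.5 in C57 ASIV and 91.4 to 286.3 in BTBR vehicle, against 71.4 to 486.3 with ASIV in BTBR.

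The remaining genes act beside or upstream of CaMKII. Camkv (chr9:107935674-107949691, plus strand) encodes a pseudokinase related to CaM kinases, without kinase activity, that is needed to maintain dendritic spines. Its FPKM was 158.7, 150.6 and 166.0 in C57 vehicle, 164.0, 157.6 and 181.5 in C57 ASIV, 209.8, 239.1 and 244.5 in BTBR vehicle, and 186.2, 164.7 and 200.4 in BTBR ASIV. BTBR vehicle stood above every other library. Camkv was higher in BTBR under vehicle by 0.54 ± 0.10 (limma adjusted p = 0.00133) and fell in BTBR with ASIV by 0.33 ± 0.10 (limma adjusted p = 0.0303). It remained at 1.16 times the C57 vehicle mean. The direction held but the call was lost under quantile normalization (-0.16, limma adjusted p = 0.263), after rescaling without mitochondrial genes (-0.29, limma adjusted p = 0.0582) and with only the 6 libraries compared (-0.33, limma adjusted p = 0.11). It was also lost without the second (-0.30) or the third BTBR vehicle library (-0.29), or without the first (-0.34) or the second BTBR ASIV library (-0.25), with limma adjusted p = 0.0621 to 0.12. Between the strains its response to ASIV differed by -0.41 ± 0.15, which did not pass (limma adjusted p = 0.0803).

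Camkk1 (chr11:73019008-73042073, plus strand) had FPKM of 36.4, 36.6 and 36.6 in C57 vehicle, 36.6, 39.3 and 37.7 in C57 ASIV, 42.0, 37.3 and 55.6 in BTBR vehicle, and 41.5, 40.5 and 36.8 in BTBR ASIV. All BTBR vehicle libraries lay above those of C57 vehicle, and the third, which was also the highest for Camk2n1 and Camk2n2, lay far above. The strain difference of 0.27 ± 0.12 did not pass (limma adjusted p = 0.0873). It was 0.39 (limma adjusted p = 0.014) without the second BTBR vehicle library.

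Camkk2 (chr5:122731170-122779409, minus strand), whose product also activates AMP-activated kinase, had FPKM of 38.2, 35.5 and 36.2 in C57 vehicle, 32.3, 31.9 and 31.3 in C57 ASIV, 35.2, 39.7 and 32.3 in BTBR vehicle, and 29.0, 33.0 and 25.2 in BTBR ASIV. In C57 the ASIV libraries lay below the vehicle libraries, and in BTBR the groups overlapped. The difference between ASIV and vehicle was -0.29 ± 0.11 in BTBR (limma adjusted p = 0.0546) and -0.20 ± 0.11 in C57 (limma adjusted p = 1.00), and neither passed. Without the third BTBR vehicle library the value in BTBR passed (limma adjusted p = 0.0346), as it did without the second BTBR ASIV library (limma adjusted p = 0.024), with the length and GC trend removed (-0.32, limma adjusted p = 0.0337) and with a filter at FPKM 5 (limma adjusted p = 0.0447).

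Camk4 (chr18:32934931-33191228, plus strand) ranged from 13.4 to 19.8 FPKM over the 12 libraries, with group means of 16.3, 15.7, 16.3 and 15.3 in C57 vehicle, C57 ASIV, BTBR vehicle and BTBR ASIV. Its strain difference under vehicle was -0.01, with a 95% interval of -0.30 to 0.27. Its FPKM did not convert to whole fragments with the exon length used for the other genes, so its level may rest on a different length, while its differences between libraries do not depend on it. It was the only 1 of the 10 with exon bases shared with another gene, 72 bases with the antisense RNA 2310026I22Rik, which was at 0.0417 to 0.412 FPKM.

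**Figure D5:**
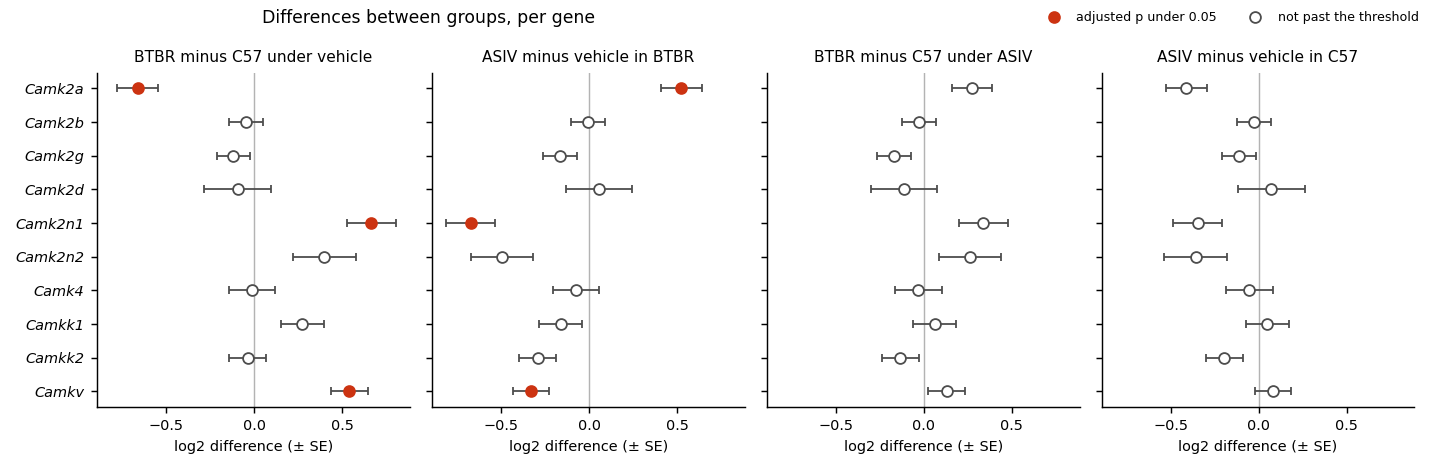
Log2 difference of each of the 10 genes with its SE from the limma fit, for the strains under vehicle, ASIV in BTBR, the strains under ASIV and ASIV in C57; filled points have an adjusted p under 0.05. Camk2a, Camk2n1 and Camkv pass between the strains under vehicle and, with opposite sign, for ASIV in BTBR, and none of the 10 passes for the strains under ASIV or for ASIV in C57.

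Counted over the 10 genes, 2 were higher and 1 lower in BTBR under vehicle, where 43.1% of all genes tested were called (22.3% higher and 20.8% lower). With ASIV in BTBR 1 was higher and 2 lower, against 29.1% of all genes (13.7% higher and 15.4% lower). The 3 of 10 in each comparison were thus below or near the share over all genes. Libraries did not overlap for 5 of the 10 under vehicle, 4 above and 1 below, against 53.3% of all genes (27.4% above and 25.9% below). With ASIV in BTBR they did not overlap for 4 of the 10, 1 above and 3 below, against 39.1% of all genes (19% above and 20.1% below). The median log2 difference of the 10 was -0.03 between the strains under vehicle and -0.16 with ASIV in BTBR, beside 0.01 and -0.01 over all genes. These comparisons share the BTBR vehicle libraries, so the opposite signs of Camk2a, Camk2n1 and Camkv in them are not independent.

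Under ASIV none of the 10 was called between the strains, where limma called 2.53% of all genes (1.31% higher and 1.22% lower). Camk2a and Camk2n1 had libraries that did not overlap there, against 26.2% of all genes (13.4% above and 12.7% below). In C57 limma called 0 of the 10 and 0 of 13586 genes for ASIV against vehicle, with 417 genes at an unadjusted p under 0.05 and 0 called by voom on recovered fragments. Libraries did not overlap for 4 of the 10 in C57, all of them lower with ASIV (Camk2a, Camk2n1, Camk2n2 and Camkk2), against 13.1% of all genes (6.14% above and 6.98% below).

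Genes that act with CaMKII were described through lists. Over all genes tested, 22.3% were higher and 20.8% lower in BTBR under vehicle. With ASIV in BTBR 13.7% were higher and 15.4% lower. These shares apply beside the counts of every list below. In each list with calls, some of the calls counted were lost when a single library was left out. Of 13 further kinases linked to calcium/calmodulin signalling, among them Stk11 and Dclk1, which are not themselves calmodulin-dependent, 5 were higher and 3 lower in BTBR under vehicle, and 2 rose and 2 fell with ASIV in BTBR, with medians of 0.02 and 0.06. Camk1d and Camk1g, of the CaM kinase I family, were lower in BTBR by -0.56 (limma adjusted p = 0.000188) and -0.78 (limma adjusted p = 0.000706), and rose with ASIV by 0.28 (limma adjusted p = 0.0222) and 0.90 (limma adjusted p = 0.000607). The rise of Camk1d missed the threshold without the third BTBR vehicle library or without any 1 BTBR ASIV library (limma adjusted p = 0.05 to 0.0581). Pnck, the beta isoform of CaM kinase I, was higher in BTBR by 0.70 (limma adjusted p = 0.000945). Stk11, which encodes the kinase LKB1, had FPKM of 29.4, 27.4 and 47.6 in BTBR vehicle against a mean of 21.4 ± 1.29 in C57 vehicle (SD, n = 3), a log2 difference of 0.64 (limma adjusted p = 0.00884) that was 0.40 without the third BTBR vehicle library (limma adjusted p = 0.0159).

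Of 7 genes for calmodulin and small calmodulin-binding proteins, 2 were higher and 3 lower in BTBR under vehicle, and 2 rose and 2 fell with ASIV in BTBR. Calm3, 1 of the genes for calmodulin itself, had a mean of 917.2 ± 26.7 FPKM in C57 vehicle, 893.0 ± 24.9 in C57 ASIV and 1574 ± 180 in BTBR vehicle, against 935.5 ± 73.6 with ASIV in BTBR (SD, n = 3). Its log2 differences were 0.77 under vehicle (limma adjusted p = 0.000144) and -0.75 with ASIV in BTBR (limma adjusted p = 0.000447). Nrgn, which encodes neurogranin, a postsynaptic protein that holds calmodulin at low calcium, was higher by 0.56 (limma adjusted p = 0.00729) and fell by 0.93 (limma adjusted p = 0.000624). Pcp4, whose product speeds calcium exchange on calmodulin, was lower at -2.06 (limma adjusted p = 2.14e-05) and rose by 1.83 (limma adjusted p = 0.00015).

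Of 14 phosphatase genes that act on CaM kinases or their substrates, 3 were higher and 2 lower in BTBR under vehicle, and 1 rose and 2 fell with ASIV in BTBR. Ppp3r1, the regulatory subunit of calcineurin, was lower at -0.78 (limma adjusted p = 0.000439) and rose by 0.48 (limma adjusted p = 0.0135), a call lost without the second BTBR ASIV library (0.41, limma adjusted p = 0.0541). Ppp2cb, a catalytic subunit of protein phosphatase 2A, was higher by 0.55 (limma adjusted p = 0.00219) and fell by 0.48 (limma adjusted p = 0.00787).

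Of 20 postsynaptic partners and substrates of CaMKII tested, 10 were lower and 1 higher in BTBR under vehicle and 9 were not called, beside 20.8% lower and 22.3% higher over all genes. Their median was -0.31 beside 0.01 over all genes, and 5 rose and 1 fell with ASIV in BTBR, with a median of 0.23. Rasgrf1, a Ras activator bound to NMDA receptors, was lower at -1.22 (limma adjusted p = 1.17e-05) and rose by 0.94 (limma adjusted p = 0.000209). Dlgap1, a scaffold of the postsynaptic density, was lower at -0.76 (limma adjusted p = 0.000208) and rose by 0.43 (limma adjusted p = 0.0116), a call lost without the second BTBR ASIV library (0.33, limma adjusted p = 0.0505). Under ASIV Shank3 alone of the 20 was called between the strains, higher in BTBR by 0.57 (limma adjusted p = 0.0375). Its C57 ASIV libraries were at 42.4, 39.5 and 28.8 FPKM, with a mean of 36.9. The other means were 52.8 in C57 vehicle, 50.9 in BTBR vehicle and 54.6 in BTBR ASIV. How far this call rests on single libraries is not reported here.

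Of 13 targets of CaM kinase IV and CREB coactivators, 7 were lower and 2 higher in BTBR under vehicle, with a median of -0.35. Over all genes 20.8% were lower and 22.3% higher. With ASIV in BTBR 5 rose and none fell, with a median of 0.32, beside 13.7% higher and 15.4% lower over all genes. The lower calls of Crebbp, Ep300, Crtc2 and Crtc3 and the higher calls of Atf1 and Hdac5 were each lost without some single libraries. The rises of Ep300 and Mef2c with ASIV in BTBR were lost in the same way. Crtc1, a CREB coactivator of neurons, was lower at -0.62 (limma adjusted p = 0.00131) and rose by 0.63 (limma adjusted p = 0.00222). Mef2c was lower at -0.90 (limma adjusted p = 0.000727) and Mef2a at -0.49 (limma adjusted p = 0.00116), both transcription factors of activity-dependent genes. Of 10 activity-regulated genes limma called none in any comparison. Their median between the strains was -0.46 under vehicle and -0.41 under ASIV. For ASIV against vehicle it was 0.33 in BTBR and 0.25 in C57. Fos had -1.05 ± 0.59 between the strains under vehicle (limma adjusted p = 0.184).

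Over the 12 libraries the protein-coding genes whose log2 levels were most like Camk2a, of 12143 compared, were Crtc1 (Pearson r = 0.962), Zbtb4 (0.956), Dennd5a (0.946), Nisch (0.937) and Prrc2a (0.936). Crtc1 had mean FPKM of 28.1 ± 1.39 in C57 vehicle, 22.6 ± 2.93 in C57 ASIV and 18.0 ± 2.71 in BTBR vehicle, against 28.2 ± 1.67 with ASIV in BTBR (SD, n = 3), the same order of groups as Camk2a except that BTBR ASIV and C57 vehicle were level. Most like Camk2n2 were Gnas (Pearson r = 0.983), Ppp2r3d (0.970), Jag2 (0.955), Dact3 (0.955) and Mapkapk5 (0.950). Each of these 5 was highest in the third BTBR vehicle library, as Camk2n2 was, for instance Gnas at 28.1, 27.2 and 48.2 FPKM and Dact3 at 245.2, 240.6 and 502.4 in the BTBR vehicle libraries. These r values describe libraries that share groups and carry no p.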

How the data were processed

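Total RNA of the mPFC was extracted with Trizol and made into Illumina libraries, per the labels' protocols. The deposited table holds FPKM computed by the authors. HISAT2 2.0.5 and mm10 are named in the submitters' processing notes, and no source used here gives the counter, annotation, strand setting or filters. Symbols came from GENCODE M21 (17265 of 17283 identifiers matched), and 0 other columns were present. Library depth was recovered from the FPKM steps and exon lengths (97.6 to 98.0% of values under 50 fragments were whole within 0.02).

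Values were analysed as log2(FPKM + 1) for genes that reached an FPKM of 1 in 3 libraries or more. The linear model had 4 group means (R 4.3.3, limma 3.58.1, eBayes with trend and robust options) and covered all 13586 genes, with Benjamini-Hochberg adjustment and a threshold of 0.05, and was checked on simulated data. A log2 difference is that of FPKM + 1 with its SE. Ratios and shares were tested by exact permutation over samples (Python 3.11.15, scipy 1.17.1).

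The members and lists were chosen with earlier results of these data known. All 10 members were named in every comparison, from each list up to 4 genes with the smallest p in either BTBR comparison, and for Camk2a and Camk2n2 the 5 genes with the highest Pearson r. Fos, Shank3, Crebbp, Ep300, Crtc2, Crtc3, Atf1 and Hdac5 were named after their values were seen. Single excitatory neuron markers are not reported here. Marker lists for astrocytes, oligodendrocytes and their precursors, microglia, endothelial cells, choroid plexus and blood were also summed. Their called members in BTBR under vehicle were 1 higher and 2 lower of 6 for astrocytes, 1 higher of 6 for oligodendrocytes, 0 of 3 for precursors, 1 higher and 2 lower of 6 for microglia, 1 higher of 5 for endothelial and mural cells, 0 of 1 for choroid plexus and 1 lower of 4 for blood. Over all genes 22.3% were higher and 20.8% lower in that comparison. Sequences of coding regions were read from GENCODE M21 transcripts and the promoter from RefSeq (GRCm38.p6).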

Additional observations from a re-analysis of the deposited data

Results flagged for a closer look

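The response of Camk2a to ASIV differed between the strains by an interaction log2 difference of 0.93 ± 0.16 (limma adjusted p = 0.00457), because it was higher with ASIV in all 3 BTBR libraries and lower in all 3 C57 libraries, the latter without passing its own test. Among the alternatives and with each library left out in turn the value ran from 0.83 to 1.02, and the largest limma adjusted p was 0.0156.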

How the results depend on the processing

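Of 1240 values of single genes under an alternative, 1216 kept their side of the threshold, 16 gained a call and 8 lost one. Among values called in either fit 0 reversed in sign. Values called in neither fit could change sign, as Camk4 did between the strains under vehicle, from -0.01 to as much as 0.11. The calls of Camk2a and Camk2n1 in both BTBR comparisons held under every alternative and without each library in turn, with log2 differences of -0.77 to -0.57 and 0.55 to 0.77 between the strains under vehicle. The number of the 10 genes called higher there was 2, and 2 to 4 with each library left out. The number called lower with ASIV in BTBR was 2, and it was 4 with a filter at FPKM 5 or with the replicate block, 1 under quantile normalization, after rescaling without mitochondrial genes or with only the 6 libraries compared, and 1 to 3 with each library left out. The number with a lower interaction was 0, and 1 with TPM scaling, where Camkv passed (limma adjusted p = 0.0464), and 0 to 1 with each library left out. TPM scaling also brought Camkk1 past the threshold under vehicle (limma adjusted p = 0.0379).

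Same-numbered samples correlated at -0.17 to 0.28 in their deviations, with 8 of 18 pairs over 0.1. Differently numbered samples were not compared, so whether the numbers pair the samples is not known. With the replicate block Camk2n2 (limma adjusted p = 0.0443) and Camkk2 (limma adjusted p = 0.0441) passed for ASIV in BTBR, giving the count of 4.

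Against the excitatory markers in place of Camk2a, chosen after seeing the data, Camk2n1 differed by 1.00 under vehicle, 0.74 under ASIV, -0.62 with ASIV in BTBR and -0.36 with ASIV in C57, and Camk2n2 by 0.74, 0.67, -0.45 and -0.38. With the length and GC trend removed, the strain difference of Camk2n2 to Camk2a under vehicle was 0.77, and that of Camk2n2 to Camk2n1 was -0.54 under vehicle, -0.22 under ASIV and 0.38 with ASIV in BTBR, with an exact permutation p of 0.0026 over the groups. That p was 0.0434 to 0.545 with each library left out. Shares of recovered fragments, not divided by length, were 77.3, 72.3 and 76.8% for Camk2a in C57 vehicle, C57 ASIV and BTBR ASIV, and 15.7, 19.2 and 16.5% for Camk2b. In C57 vehicle, C57 ASIV, BTBR vehicle and BTBR ASIV they were 4.85, 5.58, 6.32 and 4.36% for Camk2g and 2.21, 2.91, 2.99 and 2.36% for Camk2d. Division by the length of each gene is the cause of these shifts by construction.

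Over all genes, ASIV in BTBR had 1864 higher and 2090 lower, against 1111 and 1147 with only the 6 libraries compared. The strains under ASIV had 178 and 166, against 50 to 352 and 49 to 291 with each library left out. The interaction had 939 and 1000, 594 to 990 and 552 to 1188 with each library left out, and 1086 and 763 after rescaling without mitochondrial genes (58.7% of calls higher, against 48.4%) and 727 and 1104 with TPM scaling (39.7%). The strains under vehicle had 3026 and 2832 (51.7% higher), 3282 and 2312 with TPM scaling (58.7%) and 2575 and 3243 without mitochondrial genes (44.3%), where ASIV in BTBR had 2173 and 1765 (55.2%, against 47.1%). In C57 with ASIV, 1 gene was called without the first C57 ASIV library. The cause of these changes was not tested.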
